A study of Mus musculus with 8 samples.

Results

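Bulk RNA-seq of hepatocyte-enriched liver cells was compared between 3 libraries labelled Adar1flox/flox and 2 labelled Adar1wt/flox. These 5 of the 8 libraries in the series were chosen by their group labels and by a batch2 mark that they share and that the 3 Adar1wt/wt libraries do not carry. Every mouse was on a C57BL/6 background, lacked both copies of Ifih1 (Ifih1-/-) and carried the Alb-Cre transgene, in which the albumin promoter drives Cre recombinase in hepatocytes, so the wt/flox controls share the Ifih1 deletion, the Cre and 1 floxed Adar1 allele with the flox/flox animals. Whether the floxed alleles of other liver cell types were recombined was not checked. Livers were perfused with collagenase and the cells were enriched by low-speed spins, red cell lysis and a Percoll step. The wt/flox mice were labelled 11 and 9 weeks old (replicates 1 and 2), and the flox/flox mice 11, 9 and 7 weeks old (replicates 1, 2 and 3), so replicate number and age go together and the 7-week flox/flox library has no wt/flox counterpart. GEO's design field speaks of 2 mice with both alleles floxed, although 3 samples of different labelled ages are given as such. All 3 were used, and which of them the text leaves out, if any, is not given in the sources used here. No label says whether each library came from a separate mouse, and p-values then measure only the spread between these libraries.

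Adar1, listed under the symbol Adar, encodes the adenosine deaminase ADAR1, which converts adenosine to inosine in double-stranded RNA. Ifih1 encodes the cytosolic sensor MDA5, which binds long unedited double-stranded RNA and signals through MAVS to induce type I interferon and, through it, interferon-stimulated genes. Other proteins that bind double-stranded or Z-form RNA, among them PKR (Eif2ak2), RNase L and ZBP1, act apart from MDA5. The comparison addresses what the second floxed Adar1 allele adds when MDA5 is already missing.

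The libraries held between 75875711 and 132303735 reads on the sense strand of genes, and a further 31.7% to 40.0% of the reads in each fell in no gene. Ifih1 had 0 to 4 reads in each of the 5 libraries. Adar (chr3:89715022-89753446, plus strand, GRCm38) was not lower in the flox/flox libraries. It was at 20.1 and 29.4 CPM (read counts scaled to a common library size with TMM factors) in wt/flox and at 45.2, 32.5 and 38.6 CPM in flox/flox replicates 1, 2 and 3. The log2 fold change was 0.65 (SE 0.23), with no overlap between the groups and an edgeR adjusted p = 0.63. A count over the whole gene does not show whether the floxed exons are missing from the transcript, and which exons are floxed is not given in the sources used here, so the group names below are the labels and no library was checked against its Adar1 genotype.

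The labelled sex of 2 libraries went against sex-linked transcripts. Flox/flox replicate 1, labelled female, had 31 reads of Xist, the X-inactivation RNA of female cells, and 21255 reads of Y-linked genes. Flox/flox replicate 2, labelled male, had 246646 Xist reads and 0 Y-linked reads. Both wt/flox libraries were labelled male and held Y-linked transcripts (18235 and 14218 reads), and flox/flox replicate 3, labelled female, had 331869 Xist reads and 0 Y-linked reads. An exchange of flox/flox replicates 1 and 2 and an exchange of their sex labels alone cannot be told apart, so their replicate numbers and ages (11 and 9 weeks) are those of the labels and were not checked. By transcripts, the comparison therefore sets 1 Y-linked and 2 Xist libraries against 2 Y-linked ones, and in the 2 Xist libraries genotype and sex cannot be told apart. On the first principal component of the 1000 most variable genes, which held 71.3% of their variance, the 3 Y-linked libraries lay at -39.2, -35.4 and -30.0 and the 2 Xist libraries at 51.4 and 53.2.

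No gene passed the test. edgeR's quasi-likelihood test called 0 of 14280 tested genes (0%) at an adjusted p under 0.05, and the smallest adjusted p was 0.357, for Cyp2a4. At an unadjusted p under 0.05, 630 genes (4.41%) were higher in flox/flox and 477 (3.34%) were lower. limma-voom also called 0 genes, whereas DESeq2 called 131 higher (0.937% of the 13985 genes with an adjusted p) and 59 lower (0.422%). The genes are therefore described by their 5 values. All 3 flox/flox libraries lay above both wt/flox libraries for 1933 genes (13.5%) and below both for 2049 (14.3%), and with a fitted change of at least 2-fold as well for 533 genes (3.73%) and 172 genes (1.2%). For a single gene, 3 against 2 libraries allow 10 splits, so an exact permutation test cannot give a two-sided p below 0.2.

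Among lists with at least 10 tested members, interferon-stimulated genes had the largest share above both controls. This list holds 64 antiviral effectors, interferon-induced GTPases and transcription factors of the pathway, all of them tested. In 36 members (56.25%, against 13.5% of all genes) every flox/flox library was above both wt/flox libraries, in 0 was every one below, and the list's median log2 fold change was 1.25, against 0.02 over all tested genes. edgeR called 0 of them. At an unadjusted p under 0.05, 35 were higher and 0 lower, against 4.41% and 3.34% of all genes. DESeq2 called 15, all higher, against 0.937% of the genes with an adjusted p. The 35 became 11 without wt/flox replicate 1 and 20 without flox/flox replicate 3. They became 8 and 1 with labelled sex as a term over 5 and 8 libraries. With sex by transcripts they became 45 over 5 libraries and 1 over 8, and with genotype alone over 8 they became 9. The share of all genes at an unadjusted p under 0.05, in either direction, was 7.75% in the main edgeR fit. In these alternatives, in the order given, it was 2.87%, 4.42%, 4.09%, 3.94%, 6.14%, 3.56% and 8.42%. The 36 became 61 without wt/flox replicate 2 and 55 without flox/flox replicate 2, where the shares over all genes were 27.28% and 20.47%. They were 36 without wt/flox replicate 1 and 38 without flox/flox replicate 1, where these shares were 23.31% and 27.32%. The flox/flox libraries were not alike: replicates 1 and 3 were each above both wt/flox libraries in 58 of the 64 members, where the share over all genes was 35.4% and 42.3%, and replicate 2 in 38, where it was 37%.

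**Figure D1:**
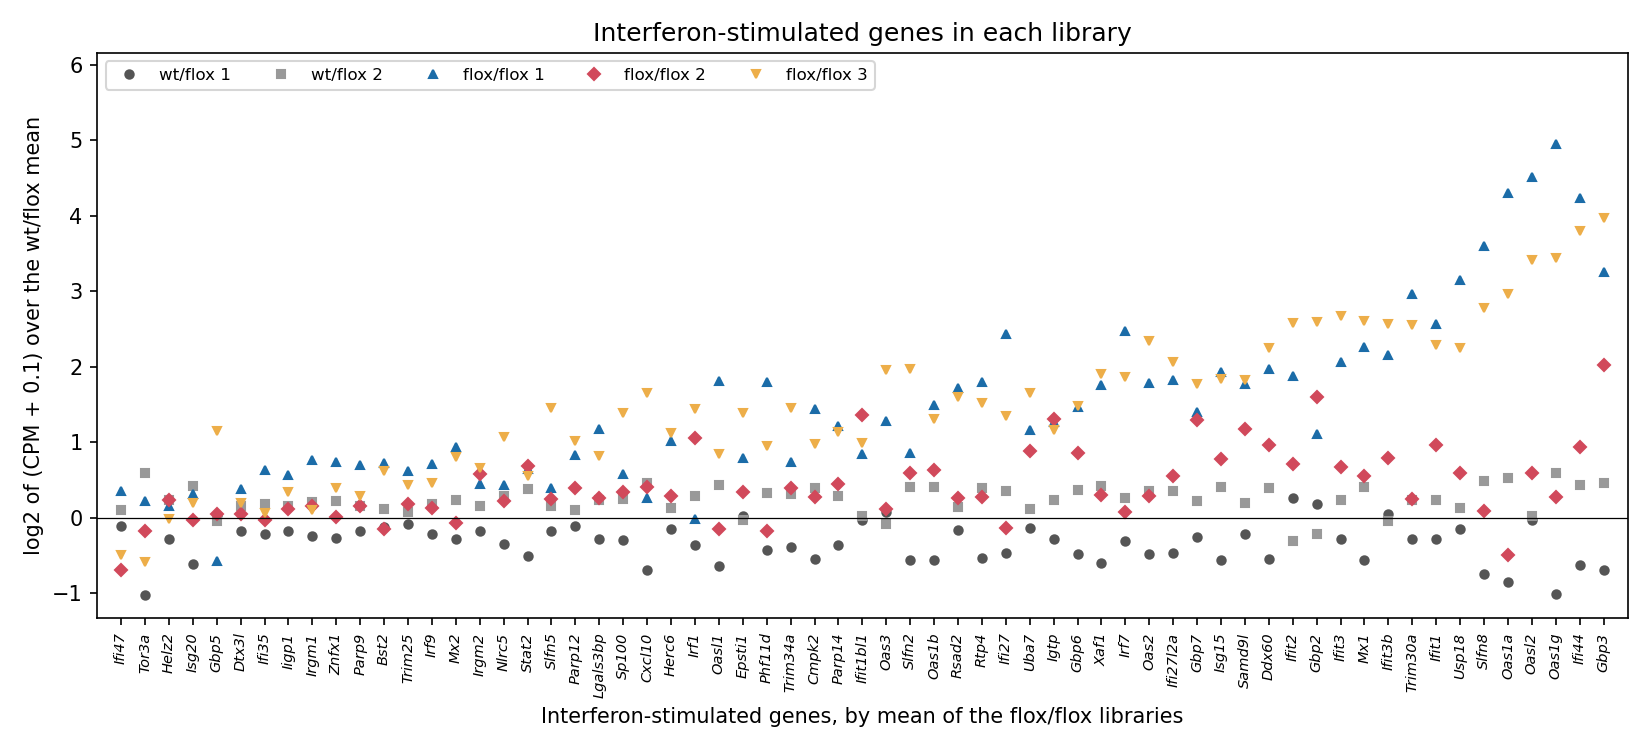
63 of the 64 interferon-stimulated genes (horizontal axis, ordered by the mean of the flox/flox libraries) with 1 point per library, as log2 of (CPM + 0.1) over the wt/flox mean. Flox/flox replicates 1 and 3 lie above both wt/flox libraries in 57 of the plotted genes each, and replicate 2 in 37, often close to wt/flox replicate 2.

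The members with the smallest p were Gbp7, Igtp, Samd9l and Uba7. Gbp7 (chr3:142530342-142550149, plus strand), a guanylate-binding protein of cell-autonomous immunity, was at 13.0 and 18.2 CPM in wt/flox and at 41.4, 38.4 and 53.6 CPM in flox/flox. Its level was 2.85-fold higher by the fit (log2 fold change 1.51, SE 0.23, edgeR adjusted p = 0.52, DESeq2 adjusted p = 3.53e-06), and the 3 flox/flox values lay well clear of the 2 controls. Igtp (chr11:58199556-58207591, plus strand), an immunity-related GTPase, stood at 24.6 and 35.3 CPM in wt/flox and at 72.4, 74.6 and 67.5 CPM in flox/flox. Its 3 flox/flox values were closer together (SD 3.67 CPM) than its 2 control values (SD 7.52 CPM), and the log2 fold change was 1.26 (SE 0.19). Samd9l, a restriction factor of viruses, had 14.0 and 18.7 CPM against 56.0, 37.1 and 58.2 CPM, with the lowest flox/flox value in replicate 2. Uba7, which activates ISG15 for its attachment to proteins, had 6.29 and 7.53 CPM against 15.6, 12.9 and 21.9 CPM. Replicate 2 was again the lowest of the flox/flox libraries.

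Other members, chosen after their values were seen, differed mainly in replicates 1 and 3. Usp18, which removes ISG15 and damps interferon signalling, was at 6.19 and 7.51 CPM in wt/flox and at 61.4, 10.4 and 32.8 CPM in flox/flox. Oasl2, of the oligoadenylate synthetase family, was at 0.428 and 0.446 CPM in wt/flox and at 12.2, 0.712 and 5.63 CPM in flox/flox. Ifit1, which binds foreign RNA ends, was at 3.50 and 5.04 CPM against 25.8, 8.44 and 21.2 CPM. In each of these genes flox/flox replicate 2 was above both controls by less than 2-fold of their mean, and replicates 1 and 3 by far more. Irf7, which amplifies interferon production, was at 7.58 and 11.3 CPM against 52.7, 9.94 and 34.8 CPM, so that replicate 2 lay between the controls. The Gbp, Oas and Ifit families hold close paralogs, between which the authors' counting could split reads.

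Promoters of this list were read because its members were high together. Of 49 members with a promoter in the RefSeq table (GRCm38.p6, 250 bases before to 50 after the start), 24 (49.0%) held the core of the interferon-stimulated response element on either strand, searched as GAAA followed after any 2 bases by a second GAAA. Of all 27025 genes with a promoter in that table, 3.99% held the same core in a window of that length. The list was written from known interferon-stimulated genes, so its higher share describes the list and is not a result of these libraries. Among members without overlap 17 of 29 held the core, and among the other members 7 of 20. The promoters of the 3 members of smallest p that hold the motif are shown in full, with the motif in capitals, which on the plus strand reads as its reverse complement in Gbp7 and Gbp3. They lie at chr3:142530086-142530385 (Gbp7), chr11:58199306-58199605 (Igtp) and chr3:142559794-142560093 (Gbp3), all on the plus strand, and the motif begins 53, 34 and 45 bases before the start, with 2 overlapping copies in Gbp3.
Gbp7: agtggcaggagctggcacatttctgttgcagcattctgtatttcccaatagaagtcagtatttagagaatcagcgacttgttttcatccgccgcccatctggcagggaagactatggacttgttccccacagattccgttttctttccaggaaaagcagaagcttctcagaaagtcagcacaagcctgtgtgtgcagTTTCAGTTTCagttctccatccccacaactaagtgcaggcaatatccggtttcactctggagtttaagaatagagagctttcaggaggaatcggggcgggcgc
Igtp: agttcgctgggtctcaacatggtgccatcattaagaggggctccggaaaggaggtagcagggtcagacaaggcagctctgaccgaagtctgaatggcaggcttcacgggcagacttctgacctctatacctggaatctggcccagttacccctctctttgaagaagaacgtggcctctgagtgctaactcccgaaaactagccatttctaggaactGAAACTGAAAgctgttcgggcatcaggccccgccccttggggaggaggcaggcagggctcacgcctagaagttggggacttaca
Gbp3: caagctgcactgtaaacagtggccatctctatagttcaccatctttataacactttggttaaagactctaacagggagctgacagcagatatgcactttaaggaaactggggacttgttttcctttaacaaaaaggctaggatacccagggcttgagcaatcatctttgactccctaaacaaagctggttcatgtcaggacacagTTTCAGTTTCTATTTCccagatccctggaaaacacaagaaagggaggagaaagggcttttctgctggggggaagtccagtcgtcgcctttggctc
Gbp3, the third of these, was at 1.01 and 2.36 CPM in wt/flox and at 16.9, 7.18 and 27.9 CPM in flox/flox. A match of letters is a description and does not show that a factor was bound.

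The interferon list was also followed without single libraries. Without flox/flox replicate 1 its median log2 fold change was 1.09, without replicate 2 it was 1.47 and without replicate 3 it was 1.13. Leaving out wt/flox replicate 1 gave 0.88, and leaving out wt/flox replicate 2 gave 1.56. With sex by transcripts as a term the median was 1.34 over the 5 libraries and 0.67 over all 8, and with labelled sex as a term it was 0.38 and 0.07. Flox/flox replicate 1 is the one flox/flox library with Y-linked transcripts, as in both controls. When it was compared with wt/flox in a fit of Y-linked libraries, with 2 Adar1wt/wt libraries added for the spread, edgeR called 17 genes higher (0.115% of 14750) and 0 lower, and 4 of the 17 were interferon-list members: Oasl2, Usp18, Trim30a and Ifit1. This fit rests on 1 flox/flox library, assumed to vary as the others do. The called genes outside the list included Cd36, Pls1, Ly6e, Mpeg1 and Cybb.

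The Adar1wt/wt libraries also differed widely in these genes. On a scaling over all 8 libraries, Gbp7 was at 19.5, 16.8 and 68.3 CPM in wt/wt replicates 1, 2 and 3, and Ifit1 at 7.45, 9.28 and 91.7 CPM. Replicate 3 of wt/wt, with Xist, 2 unfloxed alleles and a labelled age of 7 weeks, was thus above every flox/flox library for both genes. It carries no batch2 mark. What sets it apart from the other wt/wt libraries was not tested.

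Markers of macrophages moved with the interferon list in some libraries. Over 17 Kupffer cell markers, all tested, the summed level was 39.0 and 39.7 CPM in wt/flox and 56.9, 40.0 and 128.2 CPM in flox/flox, and the members were above both controls in 15, 3 and 17 cases, where the shares over all genes were 35.4%, 37% and 42.3%. Clec4f, a lectin specific to Kupffer cells, was at 8.05 and 7.85 CPM in wt/flox and at 12.4, 7.69 and 26.9 CPM in flox/flox. Replicate 2 did not exceed the controls in this gene, and replicate 3 exceeded them more than any other library. The 22 monocyte and recruited-macrophage markers, 20 of them tested, summed to 13.3 and 15.0 CPM in wt/flox and to 28.8, 12.6 and 46.0 CPM in flox/flox. Cybb, the catalytic subunit of the phagocyte NADPH oxidase, was at 2.50 and 2.36 CPM against 11.9, 2.10 and 14.2 CPM. Gbp7, Igtp and Samd9l were high in replicate 2 too, where the macrophage sums were at the level of the controls. These genes were picked by their small p, which favours genes high in every flox/flox library. Relative to the mean of the 5 libraries, the mean log2 CPM of the whole interferon list was -0.23 in replicate 2. It was 0.86 and 0.87 in replicates 1 and 3, against -1.07 and -0.43 for the controls. Of the 64 members, 38 (59.4%, against 37% of all genes) were above both controls in replicate 2. In bulk libraries, fewer cells of a type and less RNA per cell cannot be told apart, and the part of these cells in the interferon values was not tested.

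**Figure D2:**
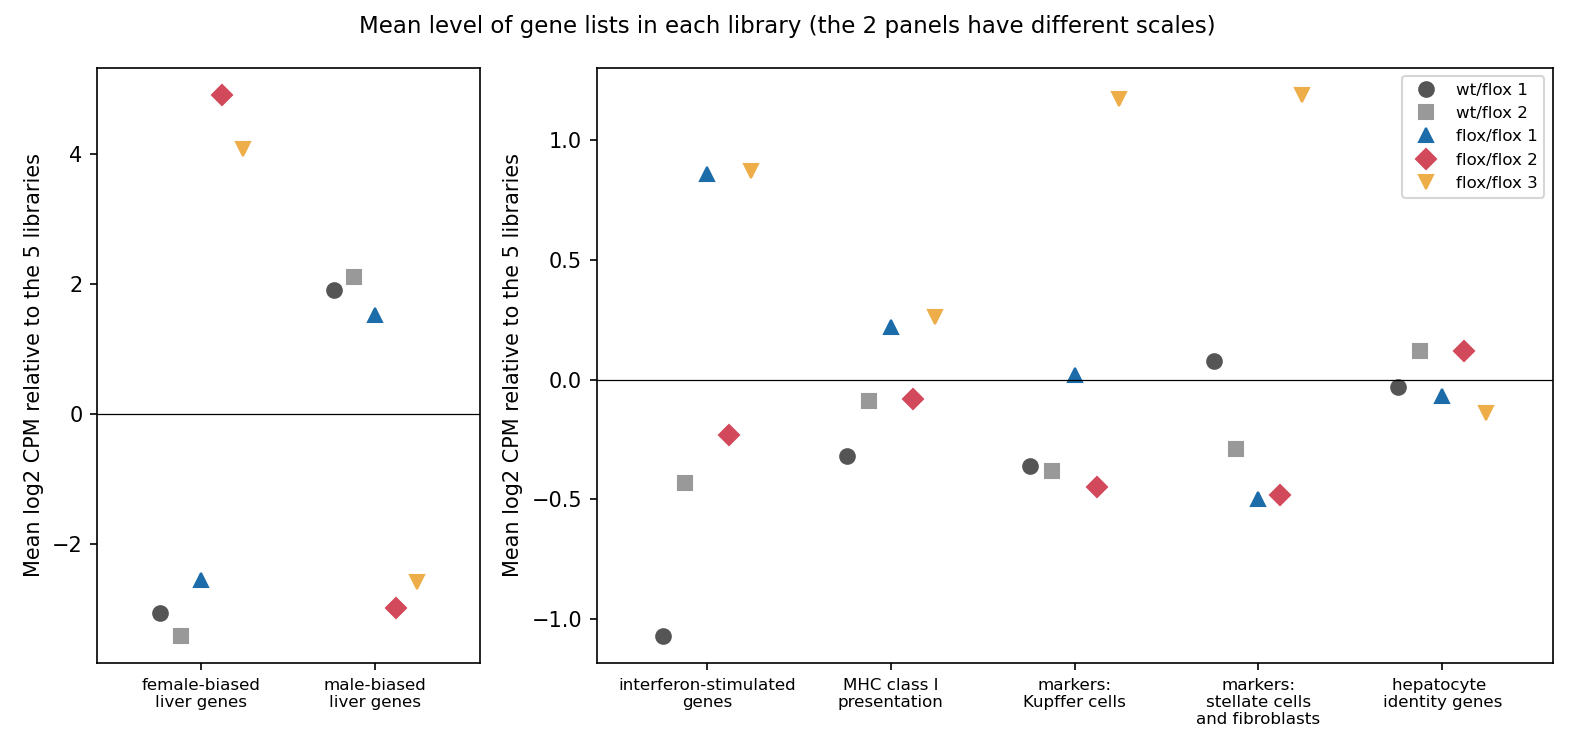
Mean log2 CPM of 7 gene lists in each library, relative to the mean of the 5 libraries, with 1 point per library and a separate scale for each panel. The sex-biased lists split the Xist libraries (flox/flox 2 and 3) from the rest, and the interferon and Kupffer lists are high in flox/flox 1 or 3, with flox/flox 2 near wt/flox 2 in the interferon list (-0.23 and -0.43).

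Genes of MHC class I antigen presentation were without overlap in part, while their summed level overlapped between the groups. In 9 of 21 tested members (42.86%, against 13.5% of all genes) all flox/flox libraries were above both controls and in 0 below both (14.3% of all genes). edgeR and DESeq2 each called 0 of them. At an unadjusted p under 0.05 the 2 tools had 5 and 8 higher, against 630 and 884 of all 14280 tested genes. The list summed to 5176 and 5890 CPM in wt/flox and to 6862, 5533 and 5836 CPM in flox/flox, so that replicates 2 and 3 lay between the controls. The median log2 fold change was 0.40, and 0.13 and 0.07 with labelled sex as a term over 5 and 8 libraries. Tapbp, the tapasin that holds class I molecules at the peptide transporter, was at 138.5 and 141.7 CPM against 194.2, 180.7 and 212.3 CPM. H2-T23, a non-classical class I molecule, was at 177.5 and 174.4 CPM against 310.9, 216.3 and 299.2 CPM. Class I genes have near-identical copies and their counts can be split between them. B2m, the light chain shared by all class I molecules, was at 1017 and 1108 CPM against 1442, 775.3 and 1047 CPM, with flox/flox values on both sides of the controls. Of 7 tested class II presentation genes, 0 were without overlap in either direction.

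Sensors of double-stranded RNA and their effectors lay nearer to all genes. All flox/flox libraries were above both controls in 4 of 18 tested members (22.22%, against 13.5% of all genes) and below both in 1 (5.556%, against 14.3%), with a median log2 fold change of 0.25. Ddx58, which encodes the sensor RIG-I, was at 25.9 and 35.1 CPM in wt/flox and at 60.7, 44.1 and 51.6 CPM in flox/flox (edgeR adjusted p = 0.63, with a log2 fold change of 0.78 and an SE of 0.21). Zbp1, the sensor of Z-form RNA that can trigger cell death, was at 1.96 and 4.31 CPM against 6.82, 5.92 and 12.3 CPM. Eif2ak2, the kinase PKR, overlapped between the groups at 17.4 and 24.7 CPM against 34.4, 22.5 and 24.2 CPM. Mavs, the adaptor of RIG-I and MDA5, also overlapped (57.7 and 74.7 CPM against 53.4, 77.8 and 55.3 CPM), as did Adarb1, the other catalytically active editing deaminase, at 12.2 and 11.2 CPM against 13.2, 10.2 and 11.9 CPM.

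The widest differences were in genes known for sex-biased expression in liver. These genes follow the sex-specific pattern of growth hormone secretion. Of 27 tested female-biased genes, all 27 were above both controls in each of flox/flox replicates 2 and 3, which hold Xist, and 12 (44.4%) in replicate 1, which holds Y-linked transcripts. The shares over all genes were 37% and 42.3% in replicates 2 and 3 and 35.4% in replicate 1, near that of the list. Of 22 male-biased genes, all 22 were below both controls in each Xist library and 14 (63.6%) in replicate 1, where the shares over all genes were 37.9%, 40.2% and 35.7%. Cyp2b13, a female-specific cytochrome P450, had 0 reads in both wt/flox libraries and 1, 21077 and 25749 reads in flox/flox, a mean at least 3265-fold higher when the controls are set to 3 reads per library. Cux2, a female-specific repressor, was at 0.118 and 0.131 CPM in wt/flox and at 0.163, 34.2 and 25.7 CPM in flox/flox. In both genes flox/flox replicate 1 was close to the controls. Mup7, a major urinary protein gene with near-identical copies, was at 721.5 and 1013 CPM against 364.9, 0.194 and 0.223 CPM, and Elovl3, a fatty acid elongase, at 512.7 and 478.0 CPM against 240.0, 0.777 and 0.899 CPM. With sex by transcripts as a term, the median log2 fold change went from 8.44 to 0.38 for the female-biased list and from -1.45 to -0.32 for the male-biased list, and the 8.44 was 7.81 with 6 members absent from wt/flox set at their bound.

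Some genes of these lists differed in the Y-linked library as well. Cyp2a4, a steroid hydroxylase with a near-identical copy in Cyp2a5 that makes its counts uncertain, was at 3.35 and 3.71 CPM in wt/flox and at 349.2, 1168 and 855.2 CPM in flox/flox. Replicate 1 alone was 98.9-fold above the wt/flox mean, and with sex by transcripts as a term Cyp2a4 was the single gene called by edgeR (log2 fold change 6.63, adjusted p = 0.00244). In wt/wt libraries it was at 0.863, 31.8 and 780.4 CPM, so the Y-linked libraries there also differed by more than their counting error. Cyp2b9, a female-biased cytochrome P450, was at 0.0535 and 0.184 CPM in wt/flox and at 5.16, 1191 and 829.9 CPM in flox/flox, with replicate 1 at a small share of the level of the Xist libraries and above both controls. Bcl6, a repressor that maintains male-biased expression, was at 48.8 and 45.9 CPM in wt/flox and at 13.2, 23 and 11.2 CPM in flox/flox. Replicate 1 was as low as the Xist libraries for Bcl6 (log2 fold change -1.58, SE 0.31, edgeR adjusted p = 0.63, DESeq2 adjusted p = 0.00191).

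**Figure D3:**
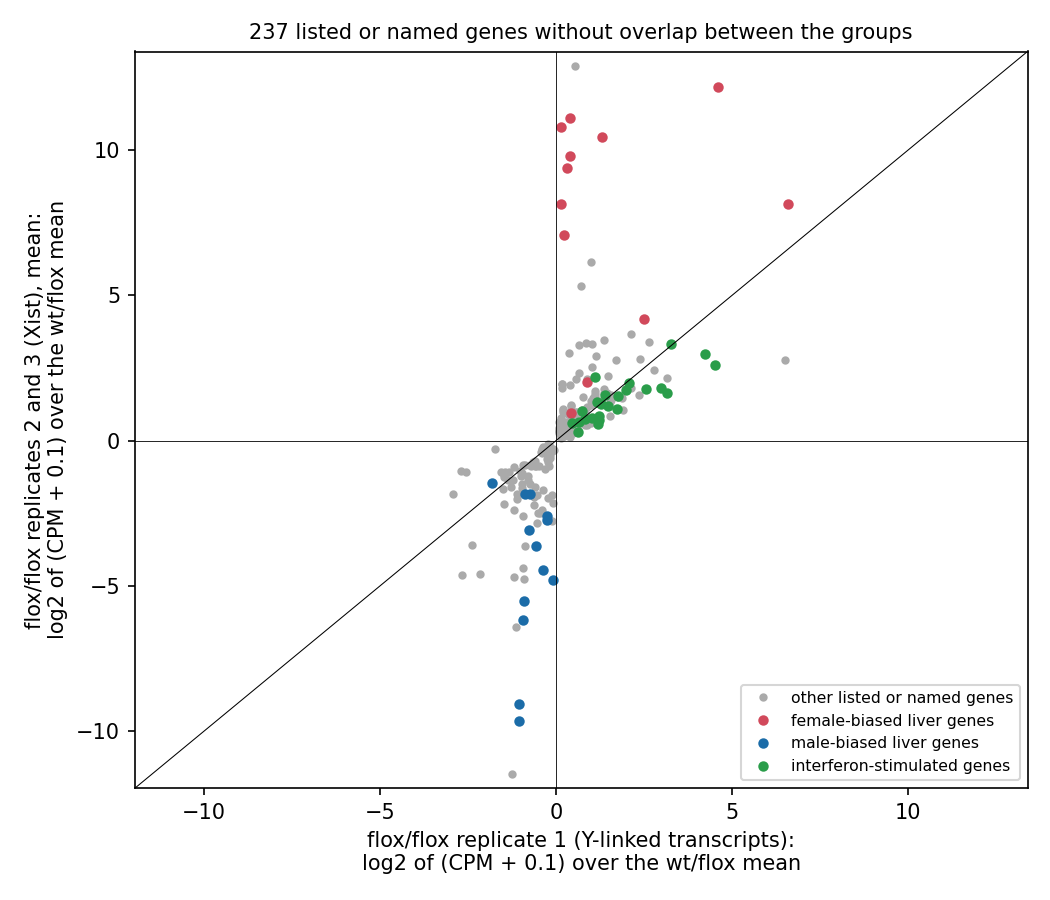
A selection of 237 genes without overlap and with a mean of at least 5 CPM in the higher group, as log2 of (CPM + 0.1) over the wt/flox mean, in flox/flox replicate 1 (horizontal) and as the mean of flox/flox replicates 2 and 3 (vertical). Beside list members and named genes, they include genes of largest fold or smallest p in this comparison and genes called in the fit of Y-linked libraries. The outlying points were thus partly selected by these same values. Genes on the diagonal line have the same value on both axes, which does not show how replicates 2 and 3 differ from each other. Many sex-biased genes lie close to the vertical axis, and interferon-stimulated genes lie on both sides of the diagonal, with Usp18 and Oasl2 below it.

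A set of genes differed by at least 2-fold in each flox/flox library. Among genes without overlap and with a mean of at least 5 CPM in the higher group, 30 were at least 2-fold above the wt/flox mean in all 3 flox/flox libraries. Another 19 were at least 2-fold below it. Gm and Rik gene models, small RNA genes, Xist and Y-linked genes were left out of both counts. With these kept, 226 higher genes were without overlap, at least 2-fold in the fit and at a mean of at least 1 CPM. Of them, 62 were at least 2-fold higher in all 3 libraries, and 41 of 105 such lower genes were at least 2-fold lower. Cd36 (chr5:17781690-17888801, minus strand), a scavenger receptor that takes up fatty acids, was at 13.5 and 11.6 CPM in wt/flox and at 55.3, 39.9 and 47.7 CPM in flox/flox. Its level was 3.79-fold higher (log2 fold change 1.92, SE 0.20, edgeR adjusted p = 0.43, DESeq2 adjusted p = 2.28e-14), and it was called in the fit of Y-linked libraries (log2 fold change 2.14, edgeR adjusted p = 0.0313). In wt/wt it was at 12.5, 10.0 and 52.5 CPM, again high in replicate 3. Txnip, the thioredoxin-interacting protein that responds to glucose, was at 15.0 and 11.3 CPM against 90.3, 47.3 and 96.6 CPM, 5.94-fold higher (log2 fold change 2.57, SE 0.36). Its wt/wt values of 40.3, 21.0 and 80.0 CPM lay above both wt/flox values. Mtmr11, of the myotubularin phosphatase family, was at 2.59 and 2.73 CPM against 6.55, 7.10 and 6.77 CPM. Of its reads, 33.8% were antisense.

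Further genes of this kind were chosen after their values were seen. Pls1, an actin-bundling plastin, was at 0.877 and 0.761 CPM in wt/flox and at 5.63, 5.25 and 13.7 CPM in flox/flox. Nid1, the basement membrane protein nidogen, was at 6.46 and 6.60 CPM against 21.5, 32.9 and 56.4 CPM. The summed level of 18 stellate cell and fibroblast markers, 16 of them tested, was 48.2 and 36.3 CPM in wt/flox and 43.3, 43.8 and 98.3 CPM in flox/flox, high in replicate 3 as Nid1 was, and its part in the Nid1 values was not tested. Gpat3, an acyltransferase of triglyceride synthesis, was at 4.60 and 6.15 CPM against 15.8, 13.7 and 13.3 CPM. In these genes the lowest flox/flox library was at least 2-fold above the wt/flox mean, and the order among the flox/flox libraries differed from gene to gene. Nqo1, a quinone reductase, was at 3.06 and 2.70 CPM against 8.72, 5.92 and 9.74 CPM.

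Among the lower genes, Trhde had the smallest unadjusted p in edgeR. Trhde (chr10:114398823-114802307, minus strand), a peptidase that degrades thyrotropin-releasing hormone, was at 4.24 and 4.81 CPM in wt/flox and at 0.864, 0.947 and 0.613 CPM in flox/flox, 5.60-fold lower (log2 fold change -2.49, SE 0.27, edgeR adjusted p = 0.43, DESeq2 adjusted p = 9.88e-13). Aadat, an aminotransferase of lysine and kynurenine breakdown, was at 64.6 and 66.0 CPM against 33.1, 29.9 and 30.5 CPM. Its 3 flox/flox values differed from each other by little (SD 1.70 CPM). C4a, a complement gene, was at 27.3 and 56.3 CPM against 7.88, 3.25 and 3.52 CPM, but 38.9% of its reads were antisense and its near-identical copy C4b shares reads with it. Grm8, a glutamate receptor, was at 3.72 and 7.25 CPM against 0.772, 0.0485 and 0.202 CPM, and Slc22a28, an organic anion transporter family member, at 29.2 and 28.7 CPM against 6.40, 1.59 and 0.634 CPM. In both, replicate 1 lay between the controls and the Xist libraries. Car3, a carbonic anhydrase chosen after its values were seen, was at 1240 and 932.2 CPM against 461.7, 439.0 and 417.2 CPM.

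**Figure D4:**
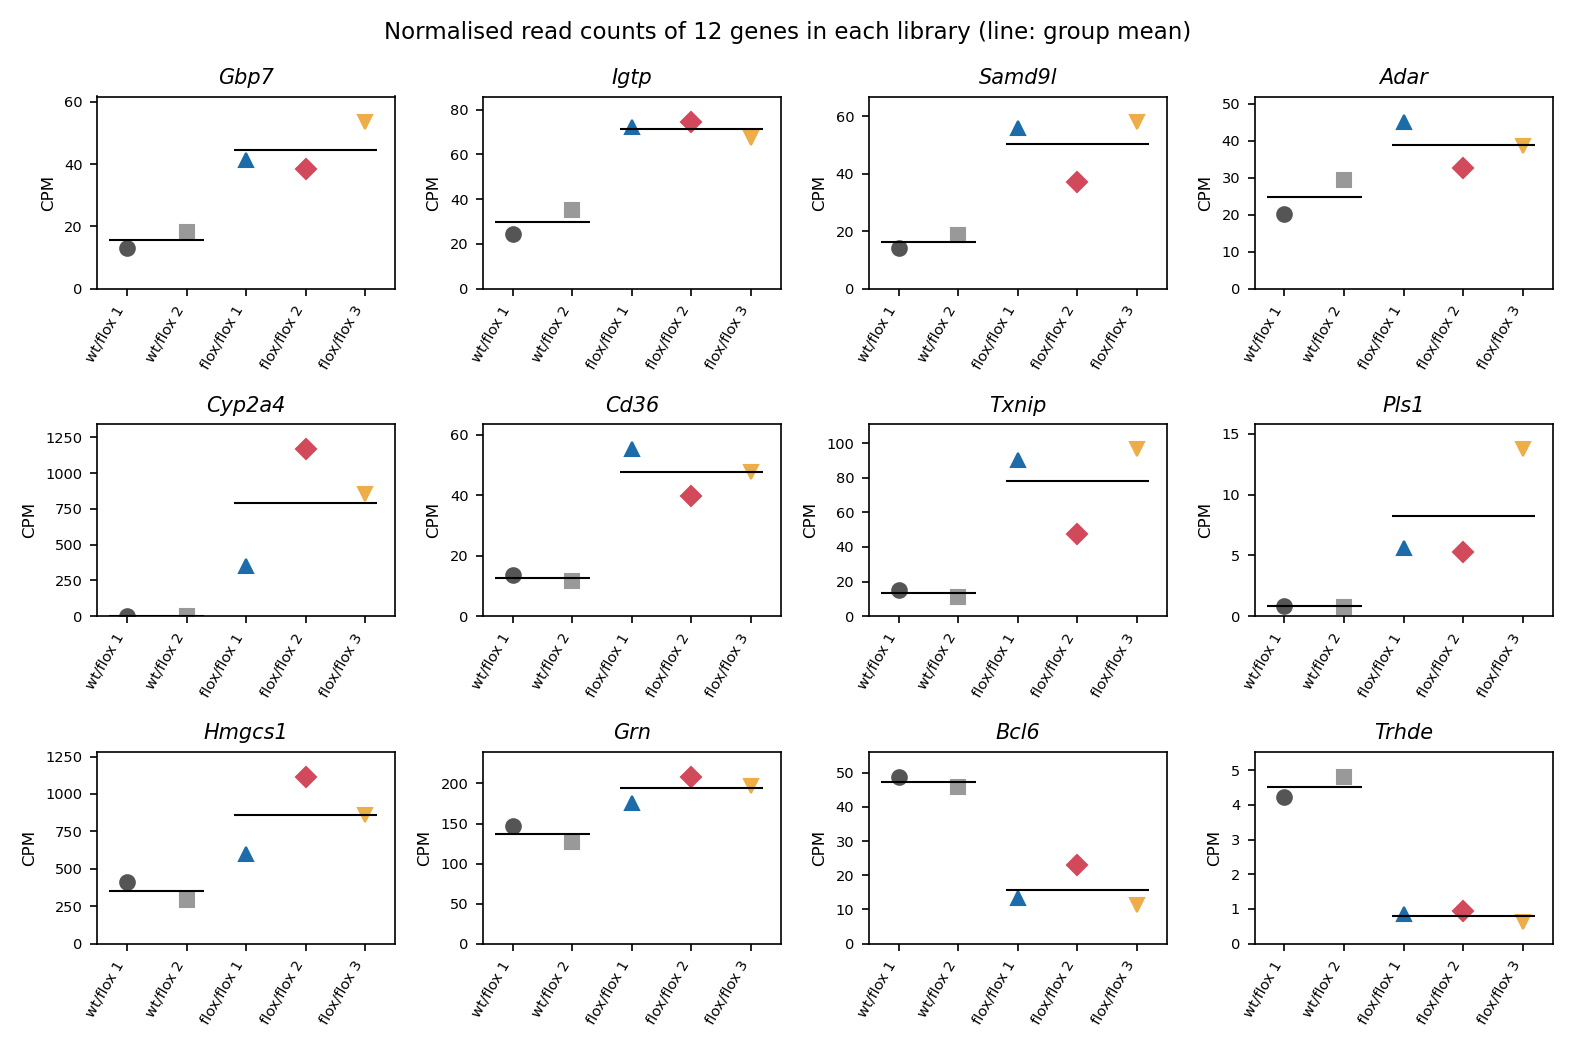
Read counts in CPM (vertical axes, each starting at 0) of 12 genes in the 2 wt/flox and 3 flox/flox libraries, 1 point per library, with a line at each group mean. For Gbp7, Igtp, Cd36, Txnip and Pls1 all 3 flox/flox libraries lie above both wt/flox libraries, and for Bcl6 and Trhde below both.

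Cholesterol synthesis was higher in 1 library above all. Of 25 tested genes of cholesterol synthesis and uptake, 23 were above both controls in flox/flox replicate 2, 14 in replicate 3 and 7 (28%) in replicate 1, against 37%, 42.3% and 35.4% of all genes. All flox/flox libraries were above both controls in 6 (24%, against 13.5% of all genes) and below both in 0. Hmgcs1, which makes the precursor of mevalonate, was at 412.2 and 290.5 CPM in wt/flox and at 600.3, 1116 and 857.9 CPM in flox/flox (adjusted p = 0.63 in edgeR and 0.012 in DESeq2, log2 fold change 1.29, SE 0.32). Its wt/wt values of 1516, 1738 and 1625 CPM were above those of every library with the batch2 mark. Lss, lanosterol synthase, was at 70.5 and 64.4 CPM against 74.3, 129.5 and 99.2 CPM, and Srebf2, the transcription factor of the pathway, at 94.0 and 93.8 CPM against 107.1, 163.4 and 123.8 CPM. Both were highest in replicate 2. With sex by transcripts as a term the list's median log2 fold change went from 0.35 to -0.07. The promoter of Hmgcs1 (chr13:119690101-119690400, plus strand) was the one among 17 matched members that held TCACNCCAC, the core of a sterol response element, on either strand, against 1.44% of all genes with a promoter in the table. It is shown with that motif in capitals.
Hmgcs1: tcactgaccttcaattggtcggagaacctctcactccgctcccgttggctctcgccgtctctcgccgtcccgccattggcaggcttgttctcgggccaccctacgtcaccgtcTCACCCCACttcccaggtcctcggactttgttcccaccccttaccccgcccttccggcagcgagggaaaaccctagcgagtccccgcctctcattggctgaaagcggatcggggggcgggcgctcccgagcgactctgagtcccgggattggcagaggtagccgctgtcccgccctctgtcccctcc

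Progranulin and EGFR, which the study's title names, were read next. Grn, which encodes the secreted lysosomal protein progranulin, was at 146.7 and 127.5 CPM in wt/flox and at 175.6, 208.6 and 197.3 CPM in flox/flox. All flox/flox values were above the controls by a small margin (log2 fold change 0.50, SE 0.16, edgeR adjusted p = 0.63), and the wt/wt values were 102.4, 113.1 and 199.1 CPM. Egfr, the epidermal growth factor receptor, was at 1894 and 1184 CPM in wt/flox and at 2232, 773.2 and 505.4 CPM in flox/flox. It overlapped between the groups, with the Y-linked flox/flox library highest and the Xist libraries lowest. Sort1, the receptor sortilin that clears progranulin, was at 49.3 and 42.9 CPM against 34.7, 37.1 and 36.9 CPM. Of the 29 tested genes of this list, 3 were above both controls in every flox/flox library and 4 below, shares of 10.34% and 13.79% that lie near those of all genes.

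Acute phase genes were without overlap in both directions. All flox/flox libraries were above both controls in 8 of 30 (26.67%, against 13.5% of all genes) and below in 4 (13.33%, near the 14.3% of all genes), with a median log2 fold change of 0.05. Lcn2, the iron-sequestering lipocalin, was at 2.85 and 5.55 CPM against 22.3, 18.8 and 40.6 CPM, 6.50-fold higher by the fit (adjusted p = 0.58 in edgeR and 6.68e-07 in DESeq2). Its wt/wt values spread from 2.46 to 59.8 CPM. C3, the central complement component, was at 11700 and 14080 CPM against 17140, 24240 and 19090 CPM. Stat3, the factor through which interleukin-6 acts on hepatocytes, was lower in every flox/flox library, at 162.5 and 138.5 CPM against 115.1, 107.8 and 116.5 CPM. Saa1, a strongly inducible acute phase protein chosen after its values were seen, overlapped at 35.6 and 67.5 CPM against 40.8, 11.4 and 42.4 CPM.

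Clock genes were without overlap in both directions. Of 21 tested members, 5 (23.81%, against 13.5% of all genes) were higher and 6 (28.57%, against 14.3%) lower in every flox/flox library. Per3, a member of the period family of clock genes, was at 3.10 and 2.90 CPM in wt/flox and at 7.89, 14.9 and 52.5 CPM in flox/flox. Dbp, an output factor chosen after its values were seen, was at 3.36 and 0.656 CPM against 9.09, 6.30 and 46.4 CPM. Npas2, which pairs with BMAL1 and peaks opposite to them, was at 5.20 and 13.6 CPM against 1.16, 3.84 and 1.34 CPM. Nfil3 was at 36.4 and 34.7 CPM against 21.7, 23.9 and 14.4 CPM. The hour of tissue collection is not given in the sources used here, and the wt/wt libraries themselves differed widely in Per3 (12.8, 1.65 and 1.52 CPM) and Npas2 (1.18, 13.3 and 15.8 CPM).

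Hepatocyte genes differed little. Of 26 hepatocyte identity genes, 4 (15.38%) were above and 3 (11.54%) below both controls in every flox/flox library, close to the shares of all genes, and the median log2 fold change was -0.07. Alb, the defining marker of hepatocytes, chosen after its values were seen, was at 89290 and 80000 CPM in wt/flox and at 89930, 155400 and 108100 CPM in flox/flox. Hes1, a target of Notch signalling, was at 1.24 and 1.90 CPM against 4.56, 5.89 and 9.46 CPM (log2 fold change 2.08, SE 0.39, DESeq2 adjusted p = 0.000104), although 1 of the 14 tested Id, Hes and BMP targets (7.143%) was higher without overlap and 3 (21.43%) were lower. Bambi, a BMP and TGF-beta pseudoreceptor, was lower, at 2.81 and 2.31 CPM against 1.51, 1.40 and 1.48 CPM. Abcc4, an exporter of bile acids and other organic anions into blood, was at 0.877 and 0.800 CPM against 1.98, 2.29 and 4.03 CPM. Acaa1b, a peroxisomal thiolase, was at 593.0 and 400.5 CPM against 198.3, 282.1 and 187.1 CPM, whereas Cyp4a31, a fatty acid hydroxylase with near-identical copies, was at 8.33 and 5.70 CPM against 18.0, 29.8 and 13.8 CPM. Of 24 fatty acid oxidation genes, 4 (16.67%) were without overlap in each direction, near the shares of all genes.

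**Figure D5:**
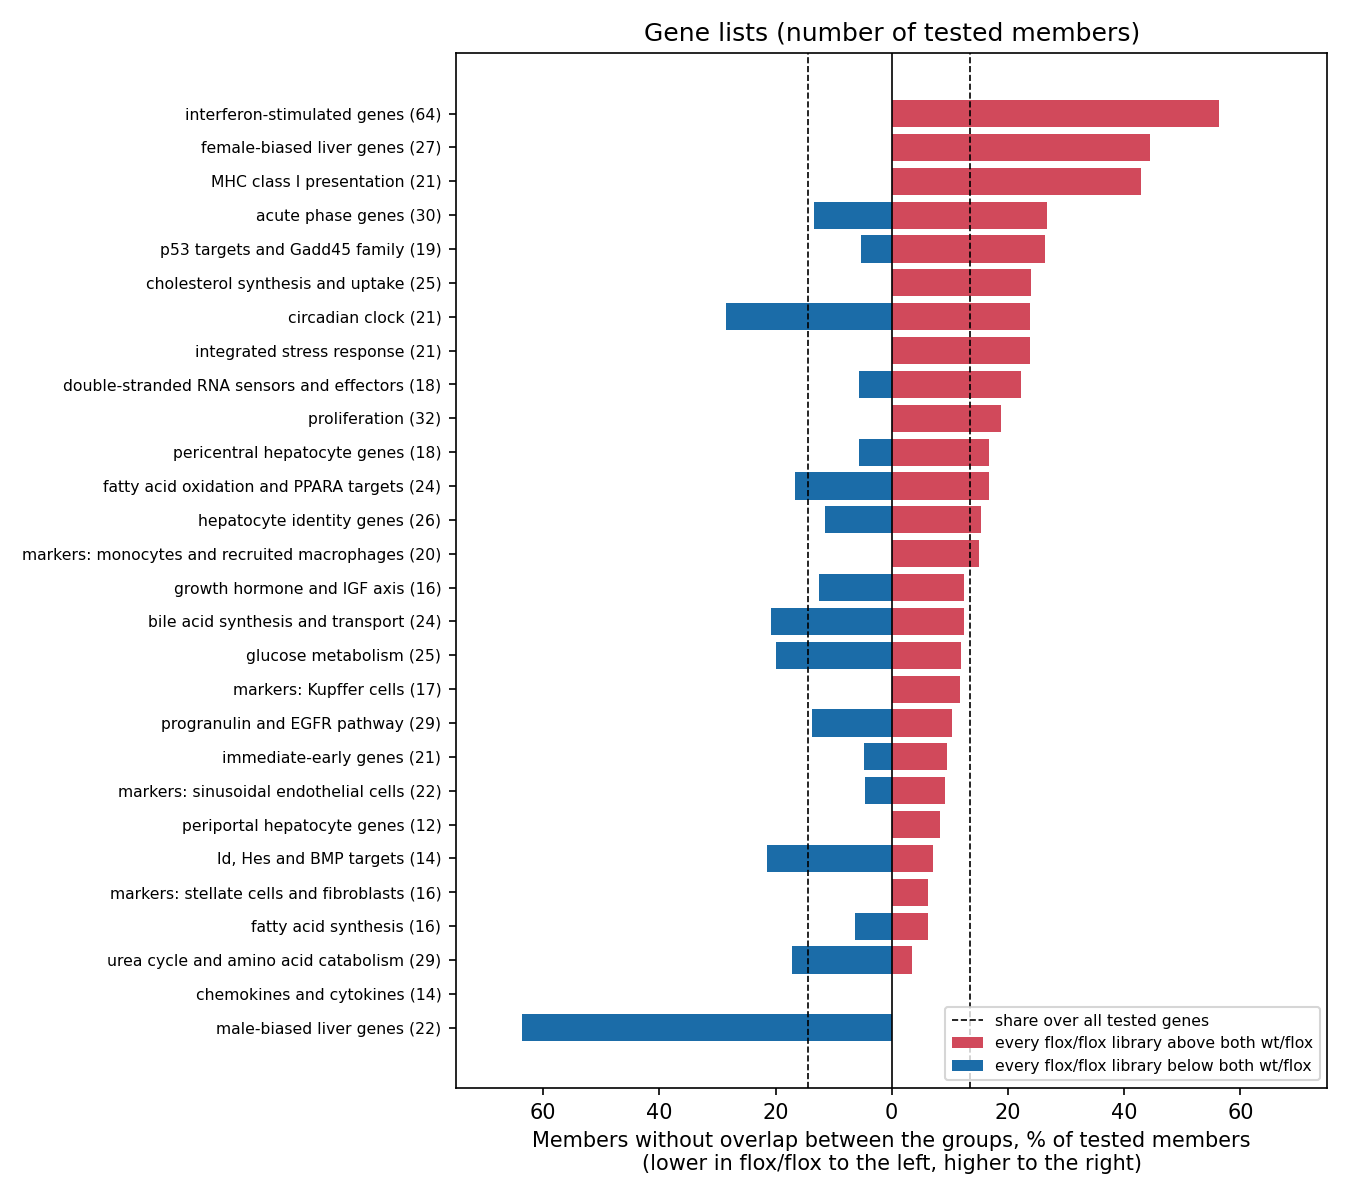
Share of each list's tested members in which every flox/flox library lies above (right) or below (left) both wt/flox libraries, in percent, for lists with at least 10 tested members (number in brackets). Dashed lines mark the shares over all 14280 tested genes, 13.5% and 14.3%; interferon-stimulated genes reach 56.25% higher and male-biased genes 63.64% lower.

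In stress and growth lists, shares are again read against the 13.5% higher and 14.3% lower of all genes. Of 21 tested genes of the integrated stress response, 5 (23.81%) were higher and 0 lower without overlap, among them Sesn2, a stress-induced inhibitor of growth signalling, at 5.05 and 4.90 CPM against 10.1, 8.14 and 7.20 CPM, and Ddit3, the factor CHOP, at 1.87 and 1.32 CPM against 2.61, 2.50 and 3.13 CPM. Of 19 p53 targets and Gadd45 genes, 5 (26.32%) were higher and 1 lower. Among 32 proliferation genes, 6 (18.75%) were higher and 0 lower. Mcm6, a subunit of the replicative helicase, was at 3.83 and 3.93 CPM against 4.98, 7.70 and 7.20 CPM, with replicate 1 the nearest to the controls. Of 14 tested chemokine and cytokine genes 0 were without overlap, and Cxcl10, the interferon-induced chemokine, was at 0.685 and 1.65 CPM against 1.42, 1.59 and 3.88 CPM.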

How the data were processed

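The authors deposited 1 table per library of raw read counts per gene symbol, with sense and antisense columns, per the file headers. The libraries were strand-specific and depleted of ribosomal RNA, per the labels' protocols. GRCm38 (mm10) and DESeq2 are named in the submitters' processing notes without a role; no source used here gives the aligner or the counting program. Each table holds 25229 genes and 5 summary rows without a gene, which were removed; of the reads in genes, ambiguous or in no gene, 31.7% to 40.0% fell in no gene and 0.317% to 0.419% were ambiguous.

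Sense counts of the 5 libraries were fitted in edgeR 4.0.16 (R 4.3.3) with TMM, filterByExpr, genotype as the single term, a two-sided quasi-likelihood F test and Benjamini-Hochberg adjustment at 0.05 over all tested genes. SE is the size of the fitted log2 fold change over the square root of F. CPM values are read counts scaled to a common library size with TMM factors; SDs are between libraries. Sex was left out as a term because the labels and the transcripts disagree in 2 libraries. The text counts genes "without overlap" where every flox/flox library is above, or below, both wt/flox libraries. DESeq2 1.42.0, limma 3.58.1, other size factors and filters, sex terms, all 8 libraries, Y-linked libraries alone, a replicate block, both strands and leaving out each library were tried. On simulated data of this comparison (14280 genes), changes were put into genes with a mean of at least 1 CPM only. The test found 10% of 2-fold, 84% of 4-fold and 98% of 8-fold changes among them. It also called 14 of 13850 genes simulated without a change. Counts were drawn independently for each gene and library, so the split between Xist and Y-linked libraries was not simulated. These shares need not hold for the real libraries.

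The comparison and all 35 gene lists were chosen with earlier results of these data known, so counts over lists are descriptions. Named genes are Adar, Ifih1, Grn and Egfr, in each direction the 10 of largest fold without overlap and a mean of at least 5 CPM in the higher group, the 4 members of smallest p in each list, the 6 of smallest adjusted p in DESeq2, and 0 from the fit of 8 libraries with sex by transcripts, which called none. Gm and Rik gene models, small RNA genes, Xist and Y-linked genes were passed over in these choices. Beside those the text marks, Eif2ak2, Mavs, Adarb1, B2m and Clec4f, the interferon-list members Gbp3 and Trim30a, and the genes named from the fit of Y-linked libraries were chosen after their values were seen. Gene positions come from GENCODE M21 (24321 of 25229 symbols, 96.4%, matched) and promoters from RefSeq.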

Additional observations from a re-analysis of the deposited data

How the results depend on the processing

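limma-voom called 0 genes, and edgeR called 0 with RLE or upper-quartile size factors, a mean CPM of at least 1, labelled sex over 5 or 8 libraries, sex by transcripts over 8, genotype alone over 8 and both strands. edgeR called 1 gene, Cyp2a4, with no filter on low counts (adjusted p = 0.0448), 1 with sex by transcripts over 5 libraries, 17 in Y-linked libraries, and 37 in the Y-linked libraries of the shared mark (an alternative chosen after seeing the data, with 1 residual degree of freedom). DESeq2 called 190. Leaving out 1 library gave 0 to 276 calls, the 276 (of 14307 tested genes) without flox/flox replicate 1. Among them were 22 of 27 tested female-biased, 17 of 22 male-biased and 4 of 64 interferon-list members. Without any other single library, 0 genes were called.

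At an unadjusted p under 0.05 the 1107 genes became 584 and 581 with labelled sex (5 and 8 libraries), 525 with sex by transcripts over 8, and 430 (without wt/flox replicate 1) to 2658 (without flox/flox replicate 1) on leaving out 1 library. The 705 genes without overlap and at least 2-fold became 1193 with no filter, 299 at a minimum mean CPM of 1, 1302 in Y-linked libraries and 1122 in those of the shared mark, and 539 to 1687 on leaving out 1 library (without flox/flox replicate 3 and wt/flox replicate 2). No named gene was called in an alternative with the direction opposite to the main fit, which itself called no gene. Some list medians of the log2 fold change did change sign. With sex by transcripts over 5 libraries, sinusoidal endothelial markers went from 0.31 to -0.39 and proliferation genes from 0.47 to -0.14. Stellate cell and fibroblast markers went from 0.27 to -0.47 in the same fit. With labelled sex over 8 libraries, Kupffer cell markers went from 0.82 to -0.38.

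With replicate number, and so labelled age, as a replicate block, 0 genes were called and 705 had an unadjusted p under 0.05, at 1 residual degree of freedom. Same-numbered libraries deviated together by r = 0.07 in both pairs (1994 genes). Flox/flox replicates 1 and 2 differ in sex by transcripts and may be exchanged, so this r cannot decide whether the numbers are pairs. The main fit did not treat the numbers as pairs. Upper-quartile scaling moved the median log2 fold change of all genes from 0.02 to 0.08. In the simulated data of 3 against 2 libraries, 10% of 2-fold changes were called, among genes with a mean of at least 1 CPM. The spread of the simulation was taken from these 5 libraries, Xist and Y-linked together. The number of controls was not varied, so its part in this recovery was not tested.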

Other observations

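Antisense reads made up 6.43% to 7.78% of the reads assigned to genes in the 5 libraries. In the same edgeR test on antisense counts alone, 0 of 12418 genes passed, 1006 had an unadjusted p under 0.05, and the smallest adjusted p was 0.104.

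Some genes were far higher in 1 flox/flox library than in the other two. Ly6a, a GPI-anchored surface protein of the Ly6 family, was at 0.546 and 1.63 CPM in wt/flox and at 107.6, 2.38 and 13.4 CPM in flox/flox, and at 2.25, 3.20 and 104.3 CPM in wt/wt. Slc7a11, the cystine transporter, had 2 and 3 reads in the controls and 163, 1 and 37 reads in flox/flox. Ntrk2, the neurotrophin receptor TrkB, was at 1.84 and 1.10 CPM in wt/flox and at 8.68, 5.16 and 51.8 CPM in flox/flox, with 2.10, 4.26 and 33.1 CPM in wt/wt. Col4a3, a basement membrane collagen chain, was at 0.107 and 0.0787 CPM against 0.285, 3.49 and 23.8 CPM. Apobec1, the cytidine deaminase that edits apolipoprotein B RNA, was lower in every flox/flox library, at 17.9 and 43.7 CPM against 10.7, 8.72 and 10.7 CPM, and at 11.4, 11.9 and 15.7 CPM in wt/wt. Ly6a, Ntrk2 and Apobec1 were chosen after their values were seen.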
